A study of Mus musculus with 7 samples.

Results

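The genes described are 8 transcription factors that are commonly used to mark formative and primed pluripotency: Otx2, Pou3f1, Lef1, Sox3, Zic2, Foxd3, Sall2 and Gbx2. They were chosen by name, with earlier results of these data known, so counts among them are no test of enrichment. Each was read by 1 probe set that carries a single gene symbol, and all 8 of 8 were found among 19938 genes. RNA of 7 mouse cultures was hybridised to 7 Affymetrix arrays, and expression is given as the authors' log2 values, so that a difference of 1 is 2-fold. In N2B27 with 2i there were 2 arrays, 1 of the induced pluripotent stem (iPS) line O4-1 and 1 of embryonic stem (ES) cells labelled OG2. In KSR medium there were 3 arrays, from iPS lines O4-4, O4-1 and O4-2. Mouse embryonic fibroblasts (MEFs) of 129/OG2 embryos at 13.5 days gave 2 arrays, 1 in iCD1 medium and 1 in FBS. All iPS lines were made from fibroblasts infected with Oct4, with iCD1 named as the medium in their source label. 2i is a pair of small molecules that block the kinases MEK and GSK3, and OG2 cells carry a green fluorescent protein gene under Oct4 control. The genetic background of the iPS lines is not stated in the labels, line O4-1 is the single iPS line in 2i, and no MEF culture was in KSR or 2i, so cell type and medium cannot be told apart in comparisons with MEFs.

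Mouse pluripotent cells pass from a naive state, like that of the preimplantation epiblast, through a formative state to the primed state of the epiblast after implantation. MEK inhibition and GSK3 inhibition hold cultured cells in the naive state. During the exit from it Otx2 redirects Oct4 to new enhancers, and the POU factor gene Pou3f1 (Oct6), Sox3 and Zic2 are switched on. Lef1 encodes a partner of beta-catenin that carries Wnt signals to DNA. Some of the genes also have roles outside this series of states: Foxd3 is needed to maintain ES cells and the neural crest, Gbx2 lies downstream of LIF and STAT3 and supports self-renewal of mouse ES cells, and Sall2 is expressed in many developing tissues.

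The 8 genes did not move as a block. Otx2 and Lef1 were 2-fold or more lower in KSR line O4-4 than in both other KSR lines, and on both 2i arrays they also lay below those lines. Foxd3 had the opposite pattern, highest in ES cells in 2i and in line O4-4, with every reading under the lowest array median (4.97). Zic2 was lowest among the pluripotent cultures in O4-4, with little difference between O4-1 in 2i and in KSR. Gbx2 and Sox3 were above the MEFs on every pluripotent array and varied little among them, and the readings of Pou3f1 and Sall2 did not separate pluripotent cells from MEFs. Otx2, Lef1, Zic2 and Pou3f1 were lower in O4-4 and on both 2i arrays than in both other KSR lines. The differences of Pou3f1 were far smaller, and Zic2 in O4-1 in 2i was only -0.03 from O4-1 in KSR. Lower levels are the direction that the name of the set implies, whereas Foxd3 went the other way. The share of all genes lower than both lines on each of these arrays was not counted. Singly, 34.5% of all genes lay below both lines in O4-4, 32.7% in O4-1 in 2i and 35.7% in ES cells in 2i. These comparisons share the O4-1 and O4-2 KSR arrays. No gene passed the test between 2i and KSR.

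Promoter sequences of Otx2, Lef1 and Foxd3 are shown from RefSeq (assembly GRCm38.p6). In O4-4 these genes were 2-fold or more from both other KSR lines, without a test, Otx2 and Lef1 lower and Foxd3 higher. The table holds promoters of 5 of the 8 genes, which leaves Pou3f1, Sox3 and Zic2 named only. Each line gives the 250 bases before the most upstream annotated start, 5′ to 3′ on the strand of the gene, with CpG dinucleotides in capitals.
Otx2 (GRCm38.p6, chr14:48667645-48667894, minus strand): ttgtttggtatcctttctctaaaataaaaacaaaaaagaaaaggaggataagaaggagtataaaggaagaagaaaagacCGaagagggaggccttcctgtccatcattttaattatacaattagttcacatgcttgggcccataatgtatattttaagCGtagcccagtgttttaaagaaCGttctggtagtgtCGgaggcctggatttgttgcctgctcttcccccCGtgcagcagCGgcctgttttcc
Lef1 (GRCm38.p6, chr3:131110047-131110296, plus strand): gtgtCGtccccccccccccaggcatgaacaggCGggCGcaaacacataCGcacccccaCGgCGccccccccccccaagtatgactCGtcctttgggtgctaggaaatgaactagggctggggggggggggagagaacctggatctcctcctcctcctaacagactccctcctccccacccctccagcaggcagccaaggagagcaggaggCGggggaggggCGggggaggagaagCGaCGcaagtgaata
Foxd3 (GRCm38.p6, chr4:99656049-99656298, plus strand): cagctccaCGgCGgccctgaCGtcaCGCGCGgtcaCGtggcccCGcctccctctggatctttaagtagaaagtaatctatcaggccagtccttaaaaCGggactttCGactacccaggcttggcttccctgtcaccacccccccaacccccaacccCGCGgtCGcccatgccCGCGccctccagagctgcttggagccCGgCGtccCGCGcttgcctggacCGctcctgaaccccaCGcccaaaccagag
The Otx2 window held 6 CpG, which is also the median of 32851 promoter windows of this length, the Lef1 window held 11 and the Foxd3 window 21. The windows of all 12 annotated starts of the 5 genes were searched on both strands for ATGCAAAT (the octamer of POU factors), TAATCC (bound by OTX factors), CTTTGA (the core of TCF/LEF sites), CTTTGT (the core of SOX sites) and CCGGAAG (bound by ETS factors). Matches were found in 2 of the 12 windows, at downstream starts of Otx2 and of Lef1, and no match overlapped another. All matches found are shown. Both genes held a motif of their own factor class, with 4 windows searched for each. The shares below are per window, so a gene with several windows has more chances of a match. The match is in capitals with up to 12 bases on each side.
Otx2, OTX motif (GRCm38.p6, chr14:48665303-48665332, minus strand): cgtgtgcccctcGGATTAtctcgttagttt
Lef1, TCF/LEF core (GRCm38.p6, chr3:131156102-131156131, plus strand): taaaatacatggTCAAAGgaaaataggtat
Lef1, TCF/LEF core (GRCm38.p6, chr3:131156162-131156191, plus strand): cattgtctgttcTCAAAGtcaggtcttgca
Lef1, SOX core (GRCm38.p6, chr3:131156136-131156165, plus strand): caacctcagaatACAAAGtaggattgcatt
The OTX motif is found in 6.25% of all 32851 windows, the TCF/LEF core in 13.8% and the SOX core in 16.5%, while the octamer is found in 1.60% and the ETS motif in 6.91%. A match describes letters and shows no binding.

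The arrays were alike in scale, with medians of all probe sets between 4.97 and 5.03, lower quartiles between 3.57 and 3.69 and upper quartiles between 6.71 and 6.79. The mean of 8 pluripotency marker genes was 10.25 to 10.39 in 2i, 9.96 to 10.19 in KSR and 4.2 to 4.24 in MEFs. For 9 fibroblast markers it was 5.97 to 6.68 in 2i, 6.54 to 7.14 in KSR and 9.07 to 10.03 in MEFs, with the highest KSR value, 7.14, in line O4-4. Markers of neural progenitors (7 measured of 8 listed) averaged 5.11 to 5.23 in 2i, 5.28 to 5.53 in KSR and 5.40 to 5.77 in MEFs. The 6 neural crest markers averaged 4.82 to 4.97 in 2i, 4.76 to 4.96 in KSR and 6.11 to 6.12 in MEFs. The 6 primitive endoderm markers averaged 5.06 to 5.28 in 2i, 5.21 to 5.70 in KSR and 5.91 to 6.14 in MEFs. The 5 trophoblast markers averaged 5.30 on both 2i arrays, 5.06 to 5.31 in KSR and 4.54 to 5.12 in MEFs. The part of other cell types in the results was not tested. In cultures of mixed cells, fewer cells that express a gene and less RNA per cell cannot be told apart.

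**Figure D1:**
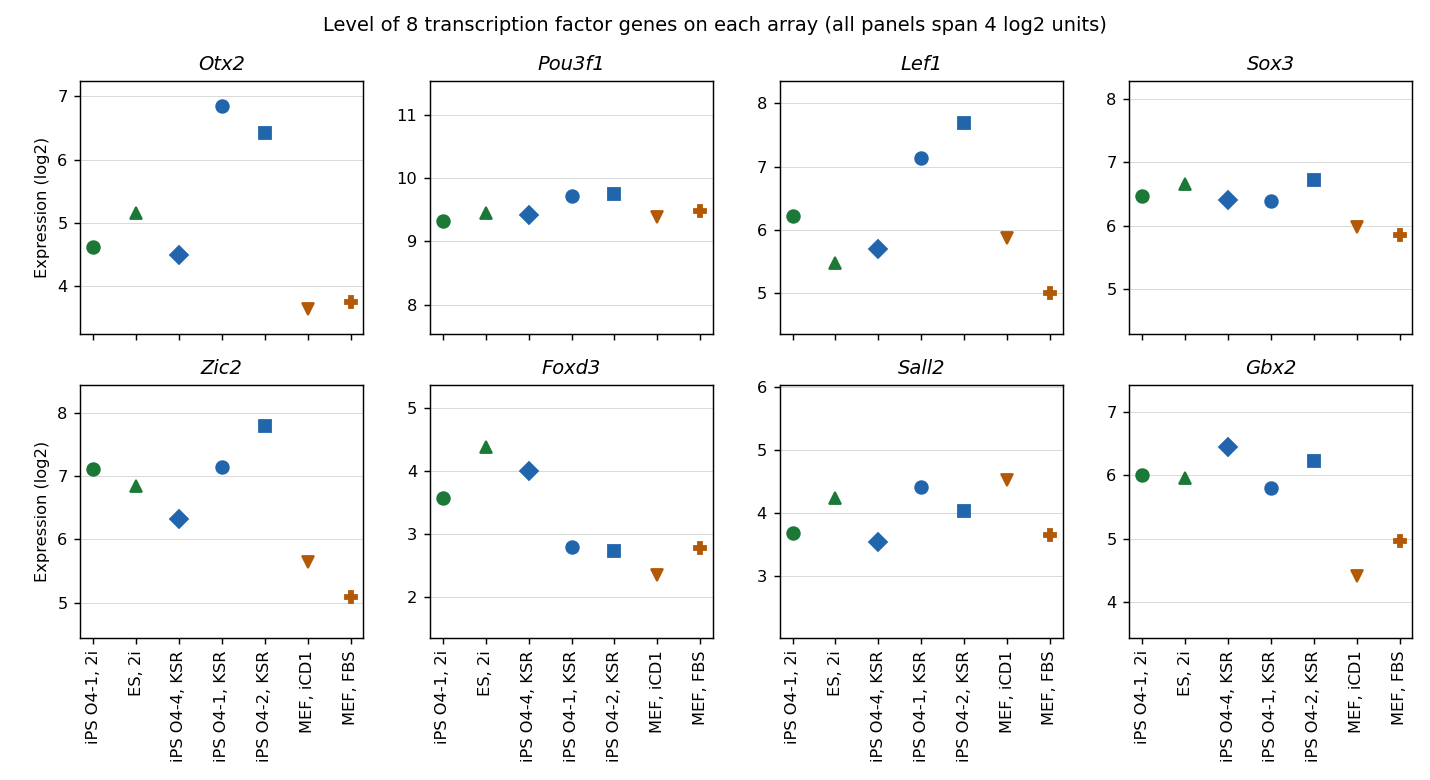
Log2 expression of the 8 genes (vertical axes, each spanning 4 log2 units) on each of the 7 arrays (horizontal axis). Every point is 1 array, with 2i cultures in green, KSR iPS lines in blue and MEFs in brown; Otx2 runs from 3.64 in MEFs in iCD1 to 6.85 in O4-1 in KSR, whereas Pou3f1 stays between 9.32 and 9.75.

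Among the homeobox genes, Otx2 was at 4.63 in O4-1 and 5.16 in ES cells in 2i, at 4.50, 6.85 and 6.43 in KSR lines O4-4, O4-1 and O4-2, and at 3.64 and 3.75 in MEFs in iCD1 and in FBS. Both 2i cultures and O4-4 lay together below the other KSR lines and above both MEF arrays. The readings of O4-1 in 2i, O4-4 and the MEFs were under the lowest array median (4.97) and are not shown to be above background. Differences taken against them may misstate the size of a change in RNA. Sorted by level, the gap of 1.26 between O4-2 and ES cells was the only one of 6 neighbouring gaps above the SD of the KSR lines (1.25). Within line O4-1 the 2i array was at -2.22 relative to the KSR array, a pair of arrays with no replicate. Against all 3 KSR lines the mean of the 2i arrays differed by -1.03 ± 0.85 (SE, 2 arrays against 3 lines; limma, adjusted p = 0.704), with a 95% interval from -3.50 to 1.44. The SD of the KSR lines, 1.25, includes O4-4 at the level of the 2i cultures. Relative to MEFs the KSR lines were 2.24 ± 0.85 higher without passing the test (limma, adjusted p = 0.155), and without line O4-4 the difference was 2.95 and passed (limma, adjusted p = 0.0428). Without O4-1 this difference was 1.77 and without O4-2 it was 1.98, and neither passed.

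Gbx2 had another pattern. It was at 6.0 in O4-1 and 5.96 in ES cells in 2i, at 6.45, 5.80 and 6.23 in KSR lines O4-4, O4-1 and O4-2, and at 4.41 and 4.96 in MEFs in iCD1 and in FBS. All 5 pluripotent arrays lay above both MEF arrays, and the 2i arrays lay inside the range of the KSR lines. Gbx2 rose by 1.47 ± 0.24 in the KSR lines relative to MEFs (SE; limma, adjusted p = 0.0264), and it rose by 1.29 ± 0.26 in the 2i cultures relative to MEFs (limma, adjusted p = 0.0471). It was the 1 of 8 genes past the threshold in each of these comparisons, where 26.4% and 22.2% of all genes were called, 12.1% and 9.75% in the upward direction. At an unadjusted p under 0.05 the count was 3 of 8 for the KSR lines and 2 of 8 for the 2i cultures, where 39.0% and 37.4% of all genes passed. Between 2i and KSR the difference was -0.18 with a 95% interval from -0.88 to 0.51. Without any 1 of the KSR lines Gbx2 no longer passed, with adjusted p from 0.0706 to 0.114 against MEFs for the KSR lines, and from 0.0740 to 0.135 for the 2i cultures (limma). With MEFs in FBS as the single fibroblast array the adjusted p was 0.0868 for the KSR lines and 0.141 for the 2i cultures. With MEFs in iCD1 alone it was 0.0561 for the 2i cultures.

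Lef1 and Sox3 encode proteins with an HMG box, which binds and bends DNA. Lef1 was at 6.22 in O4-1 and 5.47 in ES cells in 2i, at 5.71, 7.13 and 7.69 in KSR lines O4-4, O4-1 and O4-2, and at 5.88 and 5.01 in MEFs in iCD1 and in FBS. The 2i arrays and O4-4 were again below the other KSR lines, but here the MEF arrays overlapped with them, since MEFs in iCD1 lay above O4-4 and above ES cells. None of the 6 neighbouring gaps passed the SD of the KSR lines (1.02). Relative to all KSR lines the 2i arrays differed by -1.0 ± 0.70 (SE; limma, adjusted p = 0.669), with an interval from -3.02 to 1.02. The KSR lines were 1.40 ± 0.70 above MEFs (limma, adjusted p = 0.246), and the 2i cultures 0.40 ± 0.77 (limma, adjusted p = 0.761), a difference of -0.03 where MEFs in iCD1 alone were the comparator.

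Sox3, a gene of the SoxB1 family that Sox2 also belongs to, was at 6.47 in O4-1 and 6.66 in ES cells in 2i, at 6.41, 6.39 and 6.72 in KSR lines O4-4, O4-1 and O4-2, and at 5.97 and 5.85 in MEFs in iCD1 and in FBS. The 5 pluripotent arrays lay within 0.33 of each other and above both MEF arrays. The step of 0.42 from the lowest pluripotent array to the MEFs was larger than the SD of the KSR lines (0.18). In limma the KSR lines were 0.59 ± 0.15 and the 2i cultures 0.65 ± 0.16 above MEFs, with adjusted p of 0.0654 and 0.0707. Between 2i and KSR the difference was 0.06, with an interval from -0.37 to 0.49.

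The zinc finger gene Zic2 was at 7.11 in O4-1 and 6.85 in ES cells in 2i, at 6.32, 7.14 and 7.80 in KSR lines O4-4, O4-1 and O4-2, and at 5.64 and 5.10 in MEFs in iCD1 and in FBS. Every pluripotent array was above both MEF arrays, O4-4 was the lowest of the pluripotent cultures, and the 2i arrays lay between KSR lines. None of the 6 neighbouring gaps was above the SD of the KSR lines (0.74). In O4-1 the 2i array was at -0.03 relative to the KSR array. The KSR lines were 1.72 ± 0.51 and the 2i cultures 1.61 ± 0.56 above MEFs, without passing (limma, adjusted p = 0.0938 and 0.135). Between 2i and KSR the difference was -0.11 with an interval from -1.58 to 1.37, and its sign turned to 0.25 without line O4-2.

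Sall2, a spalt family zinc finger gene, was at 3.68 in O4-1 and 4.24 in ES cells in 2i, at 3.54, 4.41 and 4.04 in KSR lines O4-4, O4-1 and O4-2, and at 4.52 and 3.66 in MEFs in iCD1 and in FBS. The groups overlapped throughout, and both the highest value (MEFs in iCD1) and the lowest (O4-4) came from single arrays. Every reading was under the lowest array median (4.97), and none is shown to be above background. None of the 6 neighbouring gaps was above the SD of the KSR lines (0.43). The KSR lines differed from MEFs by -0.09 with an interval from -0.98 to 0.79. The sign of this difference turned without O4-4 (0.135) and with MEFs in FBS alone (0.34), so no direction is given.

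Pou3f1 read 9.32 in O4-1 and 9.44 in ES cells in 2i, 9.42, 9.72 and 9.75 in KSR lines O4-4, O4-1 and O4-2, and 9.38 and 9.49 in MEFs in iCD1 and in FBS. Its range over all 7 arrays was 0.435, the smallest of the 8 genes. Lines O4-1 and O4-2 in KSR were the highest arrays, 0.23 above MEFs in FBS, a gap above the SD of the KSR lines (0.18). The KSR lines were 0.195 ± 0.15 above MEFs (limma, adjusted p = 0.426) and the 2i arrays differed from KSR by -0.25 ± 0.15 (limma, adjusted p = 0.622), with intervals from -0.23 to 0.62 and from -0.68 to 0.18. How much of this reading is background was not analysed here.

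Foxd3, a forkhead gene, was at 3.57 in O4-1 and 4.38 in ES cells in 2i, at 4.00, 2.80 and 2.73 in KSR lines O4-4, O4-1 and O4-2, and at 2.35 and 2.78 in MEFs in iCD1 and in FBS. Every reading was under the lowest array median (4.97). Both 2i cultures and O4-4 lay above the other KSR lines, and those lines were at the level of MEFs in FBS. These low readings are under the lower quartile of every array and are not shown to be above background, so the differences taken against them are differences of readings and may misstate the size of a change in RNA. The gap of 0.77 between O4-1 in 2i and O4-1 in KSR was the one of 6 neighbouring gaps above the SD of the KSR lines (0.71). Relative to all KSR lines the 2i arrays were 0.80 ± 0.49 higher (SE; limma, adjusted p = 0.633), with an interval from -0.62 to 2.22. The 2i cultures were 1.41 ± 0.54 above MEFs (limma, adjusted p = 0.161), and without line O4-4 in the fit this difference passed (limma, adjusted p = 0.0425). It did not pass without O4-1 or without O4-2, and in these fits only the spread changes, not the difference.

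**Figure D2:**
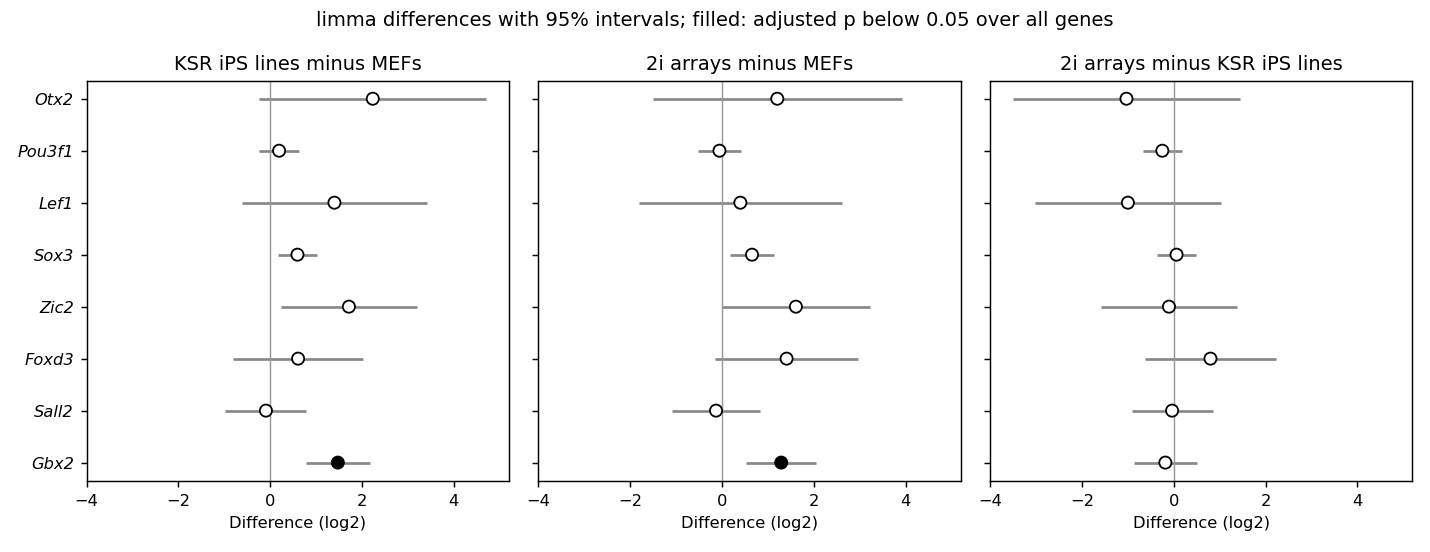
Differences in log2 expression (horizontal axes) of the 8 genes (vertical axis) for KSR iPS lines minus MEFs, 2i arrays minus MEFs and 2i arrays minus KSR iPS lines, with 95% intervals from limma. Filled points passed an adjusted p of 0.05, which Gbx2 did against MEFs at 1.47 and 1.29, and no gene did between 2i and KSR.

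Which of the genes were lower in 2i was asked against the KSR lines. In limma 0 of the 8 genes and 0.0% of all genes passed for O4-1 in 2i, for ES cells in 2i and for their mean, while 1339, 1746 and 1799 of 19938 genes (6.72%, 8.76% and 9.02%) had an unadjusted p under 0.05, with 0 of the 8 among them. For their mean 6 of the 8 genes were lower in 2i, with a median of -0.14 beside 0.01 over all genes. No gene of the set had both 2i arrays outside the range of all 3 KSR lines, since O4-4 overlapped with them or the KSR lines enclosed them, where 13.1% of all genes had both 2i arrays below and 12.9% above. Without O4-4 the 2i arrays differed from lines O4-1 and O4-2 by -1.74 for Otx2, -1.57 for Lef1, -0.36 for Pou3f1 and 1.21 for Foxd3. Each had an adjusted p of 0.408 (limma). In this fit 4 of the 8 had an unadjusted p under 0.05 for the mean, beside 2442 of 19938 genes. For O4-1 and for ES cells in 2i it was 3 of the 8 each, beside 1783 and 2268 genes. Without O4-1 the difference was -0.57 for Otx2 (limma, adjusted p = 0.901), and without O4-2 it was -0.57 for Lef1 (limma, adjusted p = 0.789). The counts of all genes at an unadjusted p under 0.05 were 651, 815 and 830 without O4-1, with 0 of the 8 among them.

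Set against each KSR line singly, O4-1 in 2i was 2-fold or more below both O4-1 and O4-2 for Otx2 alone among the 8, as for 0.512% of all genes, and above both for 0 of 8, as for 0.191%. ES cells in 2i were 2-fold or more below both for Otx2 (-1.69 and -1.26) and Lef1 (-1.66 and -2.22), as for 0.782% of all genes, and above both for Foxd3 (1.57 and 1.65), as for 0.948%. For Lef1 the values of O4-1 in 2i were -0.91 against O4-1 and -1.48 against O4-2, and for Foxd3 they were 0.77 and 0.85. At any distance, O4-1 in 2i lay below both lines in 5 of 8 genes and above both in 1, where 32.7% and 38.1% of all genes did, and ES cells in 4 and 1, where 35.7% and 35.6% did. ES cells and O4-1, both in 2i, differed by less than 2-fold in all 8 genes, where 0.672% of all genes were 2-fold or more higher in ES cells and 0.306% lower, the largest differences being 0.80 for Foxd3 and -0.74 for Lef1. In the other 5 genes every difference of a 2i array from O4-1 or O4-2 in KSR was under 2-fold, the largest being -0.95 for Zic2 in ES cells against O4-2.

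Line O4-4 was compared with its sister lines in the same medium, without a test because each line is 1 array. Otx2 was at -2.35 relative to O4-1 and -1.93 relative to O4-2, and Lef1 was at -1.42 and -1.99. These 2 of the 8 genes were 2-fold or more below both lines, as were 0.481% of all genes. Foxd3 was 1.20 and 1.27 above them, the 1 gene of the set 2-fold or more above both, as were 0.542% of all genes. Zic2 was at -0.83 and -1.48, Sall2 at -0.87 and -0.50 and Pou3f1 at -0.30 and -0.33, whereas Gbx2 was 0.65 and 0.22 higher. Sox3 was at 0.01 and -0.31. O4-4 thus lay below both lines in 5 of 8 genes and above both in 2, where 34.5% and 34.4% of all genes did. For scale, O4-2 and O4-1 differed by 2-fold or more in 0 of the 8 genes, the largest difference being 0.65 for Zic2, where 0.281% of all genes were 2-fold or more higher in O4-2 and 0.331% lower. Against O4-1 in 2i, line O4-4 in KSR differed by -0.13 in Otx2, -0.51 in Lef1, -0.80 in Zic2 and 0.43 in Foxd3, and it was within 2-fold of both 2i arrays in all 8 genes, where 0.642% of all genes were higher by that much and 0.326% lower relative to O4-1 in 2i, and 0.577% and 0.707% relative to ES cells. Fibroblast markers averaged 7.14 in O4-4, the highest of the KSR lines, and their part in these values was not tested.

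The joint question of a gene lowered in 2i and in O4-4 was met by Otx2 at the 2-fold level. It was 2-fold or more below O4-1 in KSR on the O4-4 array and on both 2i arrays, as were 55 of 19938 genes (0.276%). Lef1 missed this by the value of O4-1 in 2i, -0.91. The comparisons share the O4-1 KSR array.

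**Figure D3:**
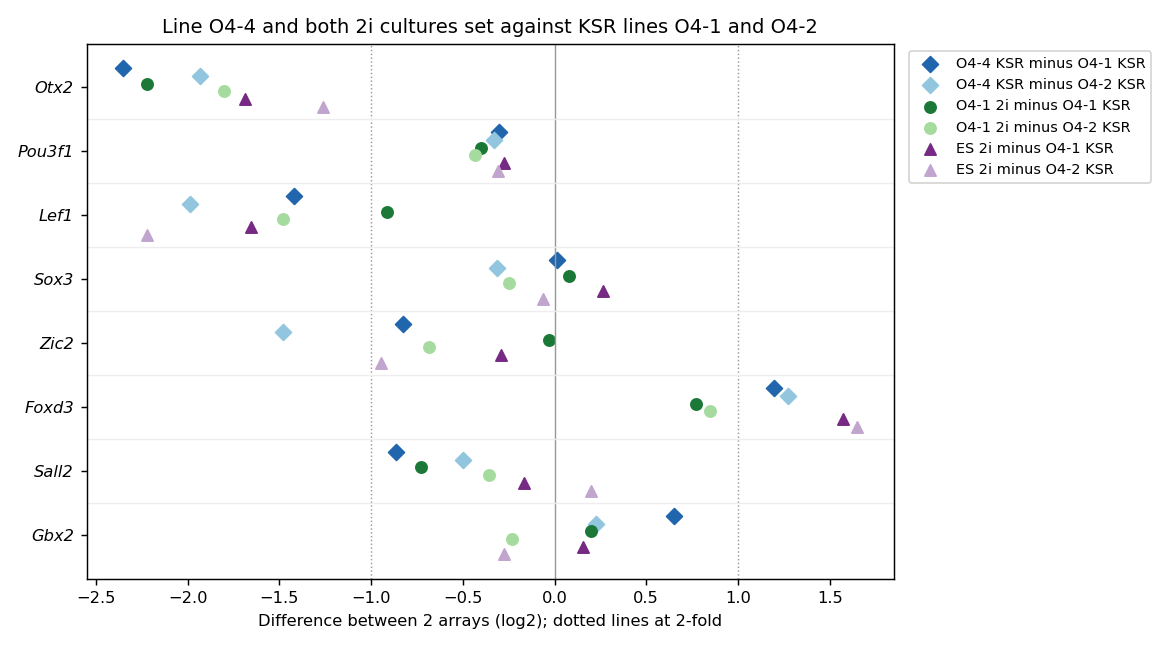
Differences in log2 expression (horizontal axis) between single arrays for each of the 8 genes (vertical axis), with diamonds for O4-4, circles for O4-1 in 2i and triangles for ES cells in 2i, each minus O4-1 or O4-2 in KSR. Dotted lines mark 2-fold; Otx2 lies at or below -1.26 in all 6 comparisons, Foxd3 at or above 0.77.

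As to MEFs, 4 of the 8 genes, Otx2, Sox3, Zic2 and Gbx2, were higher on all 5 pluripotent arrays than on both MEF arrays, as were 21.9% of all genes. None was 2-fold or more higher throughout, where 3.08% of all genes were. None of the 8 was lower on all 5, where 22.0% were. Lef1, Foxd3, Sall2 and Pou3f1 overlapped with MEFs. The KSR lines were above MEFs in 7 of 8 genes, with a median of 1.00 against 0.00 over all genes, and the 2i cultures in 6 of 8, with a median of 0.93 against 0.04. Between the MEF arrays, iCD1 and FBS, the 8 genes differed by less than 2-fold, where 1.7% of all genes were 2-fold or more higher in iCD1 and 0.998% lower, the largest differences being 0.87 for Lef1 and for Sall2. A level on this array is not separated from background, so a MEF value alone does not show that a gene was expressed there.

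The closest relatives of the 8 genes were set beside them, since members of a family can stand in for one another in different cells. Of 21 listed relatives 19 were measured. Relative to MEFs 5 rose and 3 fell in the KSR lines (limma), against a background of 12.1% of all genes higher and 14.3% lower. Sox2, the SoxB1 partner of Oct4, was at 10.23 and 10.16 in O4-1 and ES cells in 2i and at 10.20, 9.97 and 9.97 in KSR lines O4-4, O4-1 and O4-2, against 5.27 and 5.21 in MEFs in iCD1 and in FBS, a rise of 4.81 ± 0.12 in the KSR lines (limma, adjusted p = 0.00659). Sox3 differed by 0.59 in the same comparison. The spalt genes Sall4 and Sall1 rose by 4.81 ± 0.12 and 2.33 ± 0.22 (limma, adjusted p = 0.00659 and 0.0108). Sall2, whose readings are not shown to be above background, differed by -0.09 without passing.

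Other families had relatives that fell. Zic1 fell by 2.00 ± 0.13 in the KSR lines relative to MEFs (limma, adjusted p = 0.00786), at 3.83 to 4.12 in KSR and 6.14 and 5.75 in MEFs in iCD1 and in FBS. Zic5 rose by 3.59 ± 0.36 (limma, adjusted p = 0.0117) on the probe set with the higher mean, which ran from 7.70 to 8.73 in KSR and was at 4.91 and 4.42 in MEFs. Its other probe set ran from 6.27 to 6.67 in KSR, against 5.70 and 5.66 in MEFs, so the size of this rise depends on the probe set. Foxd1, a forkhead gene of stromal cells, fell by 3.06 ± 0.14 (limma, adjusted p = 0.00659), at 4.08 to 4.41 in KSR and 7.07 and 7.58 in MEFs. In the family of Lef1, Tcf7l1, which encodes a repressor that opposes the pluripotency network, rose by 1.16 ± 0.11 and Tcf7l2 fell by 1.29 ± 0.22 (limma, adjusted p = 0.0106 and 0.0283). The relatives of Otx2, Pou3f1 and Gbx2 did not pass, with differences from -0.49 for Pou3f3 to 0.19 for Pou3f2. Between 2i and KSR 0 of the 19 relatives passed. In O4-4, 0 relatives were 2-fold or more from O4-1, and Zic5 was the 1 that was so from O4-2, at -1.03 on the probe set with the higher mean, while its other probe set, at 6.27 in O4-4 and 6.67 in O4-2, was within 2-fold.

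**Figure D4:**
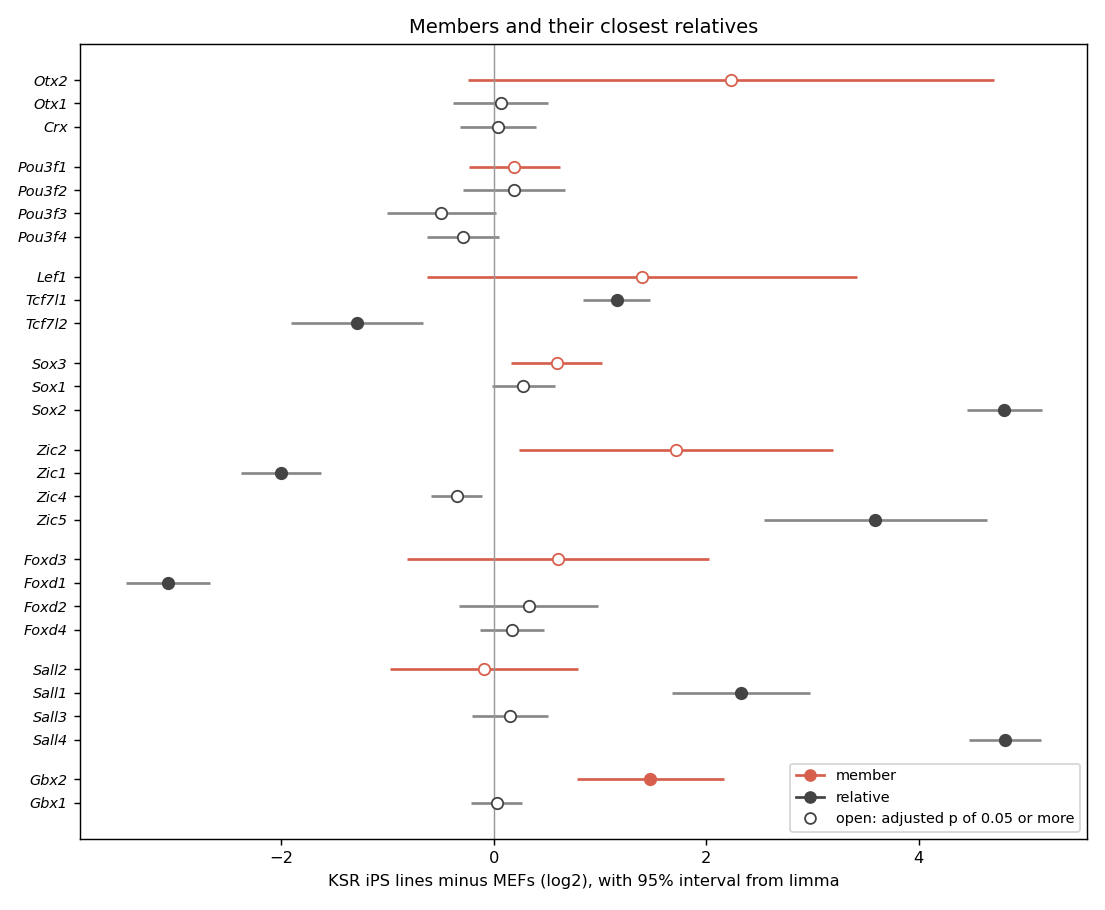
Difference in log2 expression between KSR iPS lines and MEFs (horizontal axis) for the 8 genes, in red, and their measured relatives, in grey, grouped by family (vertical axis), with 95% intervals from limma. Filled points passed an adjusted p of 0.05; Sox2 and Sall4 lie at 4.81, while Sox3 and Sall2 lie at 0.59 and -0.09.

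Other genes of the formative and primed states were then listed, 21 of 22 with a probe set. Against MEFs 8 rose and 2 fell in the KSR lines, and 5 rose and 2 fell in the 2i cultures (limma). The genes that rose in KSR included Utf1, a chromatin-bound factor of pluripotent cells, by 4.36 ± 0.87, and Trap1a by 3.39 ± 0.21, while the cadherin gene Cdh2 fell by 3.12 ± 0.37 and the SoxC gene Sox4 fell by 2.16 ± 0.26 (limma, adjusted p from 0.00756 to 0.0410). Between 2i and KSR 0 passed. In O4-4, 10 of the 21 were 2-fold or more below O4-1 and 11 below O4-2, where 0.777% and 1.39% of all genes were, with medians of -0.67 and -1.06 beside 0.00 over all genes for both. In O4-1 in 2i 7 of the 21 were 2-fold or more below O4-1 in KSR, where 0.953% of all genes were. This list and the lists below were chosen with earlier results of these data known, so such counts are no test of enrichment.

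Single genes of this list resembled Otx2 and Lef1. The growth factor gene Fgf5, a standard marker of the formative epiblast, was at 4.65 in O4-1 and 4.49 in ES cells in 2i and at 4.44, 5.63 and 6.22 in KSR lines O4-4, O4-1 and O4-2, but at 4.79 and 5.33 in MEFs in iCD1 and in FBS. The de novo DNA methyltransferase gene Dnmt3a was at 6.76 and 5.92 in the same 2i cultures and at 6.39, 7.93 and 7.96 in the KSR lines, with MEFs at 7.10 and 6.56. In Dnmt3a MEFs overlapped with the 2i cultures and O4-4, as in Lef1, whereas in Fgf5 both MEF arrays lay above them and below the other KSR lines. Wnt8a, a Wnt ligand gene, was at 3.97 and 4.30 in 2i and at 3.87, 5.17 and 6.09 in KSR, with MEFs at 3.82 and 3.79. The kinase gene Pim2 was at 6.63 and 6.41 in 2i and at 6.69, 8.15 and 9.0 in KSR, with MEFs at 5.67 and 5.62. Eomes and Mixl1, genes of the primitive streak, did not share this pattern, at 5.08 and 4.98 in O4-4 against 4.93 and 4.16 in O4-1 and 4.98 and 4.67 in O4-2.

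**Figure D5:**
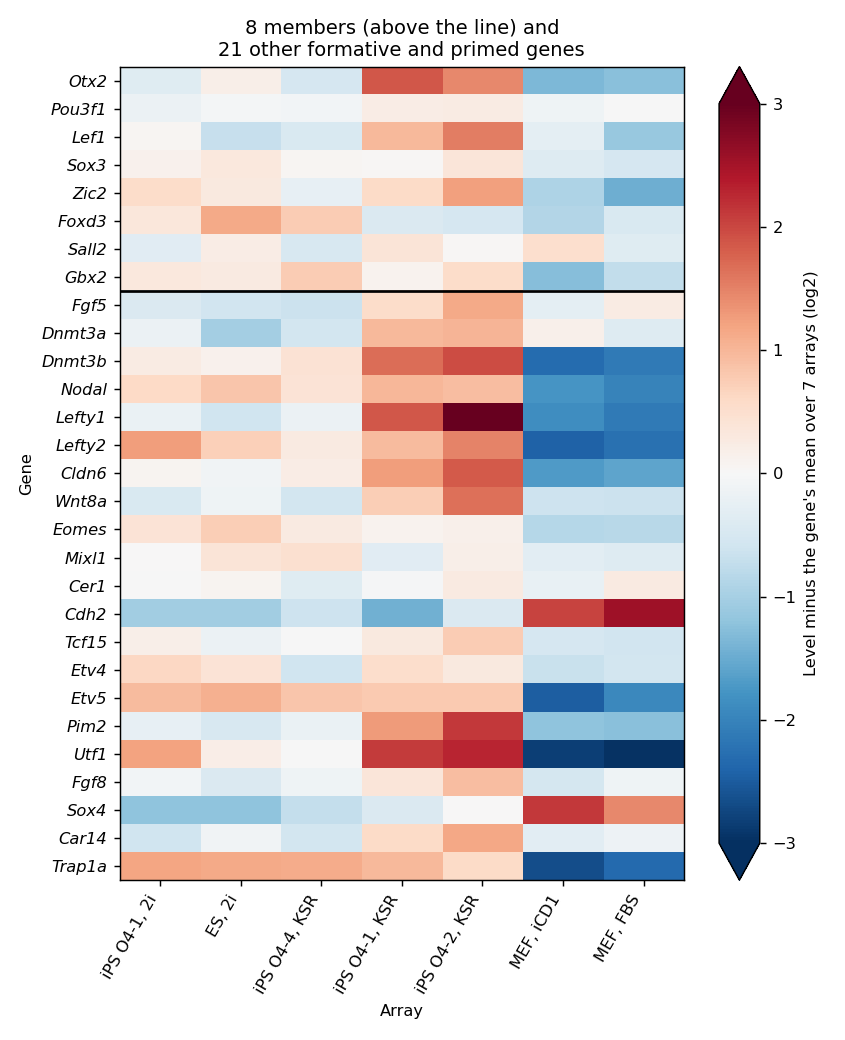
Log2 level minus the mean of the gene over 7 arrays (colour) for the 8 genes, above the line, and 21 other formative and primed genes, below it (vertical axis), on each array (horizontal axis). Lines O4-1 and O4-2 in KSR hold the high values of Otx2, Lef1, Dnmt3a, Pim2 and Wnt8a, while Foxd3 is highest in ES cells in 2i (4.38) and in O4-4 (4.00).

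The naive factor genes had the reverse direction in O4-4. Of 14 measured, 13 were higher in O4-4 than in O4-1 and 13 than in O4-2, with 4 and 8 of them 2-fold or more higher, where 0.777% and 1.44% of all genes were. All 14 were also lower in O4-2 than in O4-1. Between the mean of the 2i arrays and KSR 13 were higher and 1 lower, and 0 passed (limma). The lower one was Dppa3, at -1.38 in O4-1 and -1.77 in ES cells in 2i relative to O4-1 in KSR. Prdm14, a repressor of the exit from the naive state, was at 6.62 and 6.73 in O4-1 and ES cells in 2i and at 7.18, 6.01 and 5.24 in O4-4, O4-1 and O4-2 in KSR. Foxd3 thus went with this list and Otx2 and Lef1 against it, as a description of these arrays. Gbx2, at 6.45 in O4-4, was within 2-fold of both other lines.

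Lef1 is itself often listed among Wnt targets, and GSK3 inhibition in 2i raises beta-catenin. Of 16 listed targets 14 were measured, Lef1 not among them, and 0 passed between 2i and KSR (limma). Axin2, a feedback inhibitor of the pathway, was at 6.02 and 6.19 in O4-1 and ES cells in 2i and at 7.13, 5.57 and 5.89 in O4-4, O4-1 and O4-2, and the homeobox gene Cdx1 was at 6.42 and 6.52 in 2i and at 6.93, 5.72 and 5.92 in KSR. Both were 2-fold or more higher in O4-4 than in either other KSR line, where Lef1 was lower. Over the 14 targets, 11 were higher and 3 lower in O4-4 than in O4-1 (median 0.18), and 6 higher and 8 lower than in O4-2 (median -0.04). Myc lay in the direction of Lef1, at -0.98 relative to O4-1 and -1.02 relative to O4-2. In MEFs Axin2 was at 7.02 in iCD1 and 5.08 in FBS, and Lef1 was higher in iCD1 as well, by 0.87.

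ERK target genes, which MEK inhibition lowers in many cells, were listed because 2i includes a MEK inhibitor. Of 16 measured, 0 passed between 2i and KSR, and their median in the mean of the 2i arrays was 0.11 against KSR lines that include O4-4. Against O4-1 and O4-2 in KSR singly, O4-1 in 2i was lower in 11 of 16 each, with medians of -0.12 and -0.28. ES cells in 2i were lower in 7 and 9 of 16, with medians of 0.14 and -0.11. In O4-4, 3 of 16 were 2-fold or more below O4-1 and 4 below O4-2, where 0.777% and 1.39% of all genes were. Dusp6 was furthest below, at -2.08 relative to O4-1 and -2.42 relative to O4-2. The immediate early gene Egr1 was the 1 of 16 that was 2-fold or more higher, by 1.49 relative to O4-1 and 1.31 relative to O4-2, where 0.777% and 1.44% of all genes were. Dusp4, which encodes an ERK phosphatase, was at 4.73 and 5.26 in O4-1 and ES cells in 2i and at 3.86, 5.17 and 5.66 in O4-4, O4-1 and O4-2. The ETS factor gene Etv4 was at 7.11 and 6.89 in 2i and at 5.89, 7.0 and 6.77 in KSR. Both were thus lower in O4-4 than in either 2i culture. Otx2 was at 4.50 against 4.63 and 5.16, but its difference from O4-1 in 2i, -0.13, was small beside the SD of the KSR lines (1.25). Lef1 was at 5.71 in O4-4 and at 5.47 in ES cells. A link of these genes to ERK was not tested.

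Genes with the profile nearest to each of the 5 genes that ranged over 2 or more were sought among all genes, by the root mean square difference of levels centred on the gene's own mean over 7 arrays. Nearest to Otx2 were Meioc (0.27), the microRNA gene Mir363 (0.38) and Zcwpw1 (0.39), all in log2 units. Meioc was at 4.19 and 4.26 in O4-1 and ES cells in 2i, at 4.05, 5.95 and 5.27 in O4-4, O4-1 and O4-2, and at 2.58 and 2.72 in MEFs. Nearest to Lef1 were Mmp25 (0.29), Fgf15 (0.38) and Wnt8a (0.38), to Zic2 Bmerb1 (0.25), Ubr7 (0.25) and Cnpy1 (0.27), to Foxd3 St8sia6 (0.14), Cidea (0.16) and Gsta3 (0.17), and to Gbx2 Oip5 (0.11), Fzd10 (0.12) and Coa7 (0.14). St8sia6 was at 5.10 and 5.62 in 2i, at 5.54, 4.32 and 4.36 in KSR and at 3.78 and 4.02 in MEFs, so that ES cells in 2i and O4-4 were its highest arrays, as for Foxd3. Pairs among these 5 genes were further apart, which follows largely from taking the nearest of all genes. Lef1 and Zic2 were 0.53 apart, Foxd3 and Gbx2 0.58, Zic2 and Gbx2 0.59, Otx2 and Zic2 0.64 and Otx2 and Lef1 0.64, whereas Otx2 and Foxd3 were 1.36 apart.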

How the data were processed

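RNA of 7 cultures (100 ng each, Trizol extraction, per the labels' protocols) gave 1 array each. The deposited values are in log2 units, made by the authors with RMA and Partek, which the submitters' processing notes name without saying which step each did. The sources used here give no versions, probe set definitions or background correction. Of 28853 probe sets, 21789 had 1 symbol in GEO's platform annotation, 1621 several and 5443 none. A gene with several (999 genes) was read by the one with the highest 7-array mean, for 19938 genes. Coordinates of probe sets were not used here.

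Groups follow titles and growth conditions. The source label of the ES array names fibroblasts, and every description names iPS cells after infection. limma 3.58.1 (R 4.3.3) was fitted to 5 groups, two-sided, with p-values adjusted by Benjamini-Hochberg over 19938 genes at 0.05. The 3 KSR lines gave 2 residual degrees of freedom, and the prior 1.62 (prior SD 0.13), so groups of 1 array were assumed to vary like these lines. Separate cultures are not stated, so p-values measure the spread between these lines, which may be technical. MEF and 2i values are means of 2 arrays. No 2 arrays held identical values. Single-array comparisons have no test, and a call there is a difference of 2-fold or more. The fit was tested on simulated data.

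The members and lists were chosen with earlier results of these data known. Named are the 8 genes, list genes past the threshold (at most 6 per list and comparison) or on which a result turns, and the 3 nearest genes of each member that ranged over 2 or more, without predicted genes. List genes given array by array with no test were picked after their values were seen. Alternatives were each KSR line left out, pooled groups, probe set choice, a filter on dim genes, scaling, moderation and the fibroblast array. The number of arrays limits the precision.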

Additional observations from a re-analysis of the deposited data

How the results depend on the processing

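The calls of single genes rested on the spread of 3 KSR lines. Against MEFs limma called 5260 genes for the KSR lines and 4431 for the 2i cultures. These counts ran from 0 to 2776 and from 0 to 2415 when 1 KSR line was left out, with 0 genes without O4-1 or without O4-2 although 5804 and 6924 genes for the KSR lines, and 5905 and 6732 for the 2i cultures, had an unadjusted p under 0.05. Called among the 8 were then 0 to 1 genes in each comparison. With MEFs in FBS alone the counts were 2968 and 2370 genes, with 0 of the 8 in both, and with MEFs in iCD1 alone 0 of the 8 were called for the 2i cultures. Of the 8 genes, 4 were called for the KSR lines and 3 for the 2i cultures both with 3 pooled groups and with arrays centred on their median. After a filter on dim genes, which left out Otx2, Foxd3 and Sall2, it was 3 and 3 of the 5 tested. After a second quantile normalization it was 3 and 2. Over all genes, pooled groups called 6314 and 5570 of 19938, and the filter 5082 and 4469 of 9969. The second normalization called 5901 genes for the KSR lines. With so many genes called, these counts are not read as a result about the 8. The genes added to Gbx2 in these settings were among Otx2, Sox3 and Zic2. Every pluripotent array lay above both MEF arrays in these genes, so no choice of arrays could turn their direction against MEFs. With pooled groups and without O4-4, chosen after seeing the data, 5 were called in both comparisons, among 5830 and 5544 genes, and 0 between 2i and KSR, where 2425 genes had an unadjusted p under 0.05. Of 385 values of single genes under the alternatives 373 kept their direction, and the 12 that changed it belonged to differences that did not pass in either setting. Many of these values could not change. Pooling alone and moderation leave every difference as it was, and leaving out a KSR line leaves those of 2i cultures from MEFs. The count of kept directions is therefore no measure of stability. No other alternative moved a count by over 1.5 times. No paired analysis was possible because the KSR and 2i groups share 1 line number only. The cause of the other changes was not tested.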
